A study of Homo sapiens with 4 samples.

Results

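The 10 promoters described here belong to genes of the integrated stress response and of the unfolded protein response of the endoplasmic reticulum (ER). They are ATF4, ATF3, DDIT3, ASNS, TRIB3, CHAC1, SESN2, PPP1R15A, XBP1 and HERPUD1, and they were looked up by Entrez identifier in a table of 28775 promoters. All 10 were present and all 10 passed the filter on low counts, which 23407 promoters passed. The genes were listed by their known function, and the rule that names them uses no measured value. Both the members and the pathway lists below were, however, chosen with earlier results of these data known. Chromatin accessibility was measured by ATAC-seq, in which the Tn5 transposase cuts and tags open DNA. HEK293T cells, a much used human line of embryonic kidney origin with the large T antigen of SV40, served for both groups, and both are labelled wild type for MORC2. The overexpression group (n = 2 libraries) was transfected with a plasmid for MORC2, an ATPase that compacts DNA, tagged with monomeric enhanced green fluorescent protein. The control group (n = 2 libraries) was treated with lipofectamine, and the labels name no empty plasmid for it, so that the presence of plasmid DNA, the tag and the MORC2 protein cannot be told apart in this comparison. Nothing in the labels says whether the replicates were separate cultures, and the p-values then measure the spread between libraries, which may be technical. In a bulk assay, a promoter open in fewer cells and a promoter less open in each cell cannot be told apart.

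The integrated stress response is a shared reaction to misfolded protein, amino acid shortage, viral RNA and mitochondrial damage. Each of these activates a kinase that phosphorylates the translation factor eIF2, which slows most protein synthesis while the mRNA of the transcription factor ATF4 is translated more. ATF4 then switches on genes for amino acid supply, redox balance and, if the stress lasts, cell death. The unfolded protein response adds ER sensors to this, one of which splices the mRNA of XBP1 so that it encodes an active transcription factor. Both of these entry points act on RNA or on protein, and promoter accessibility does not measure them. What ATAC-seq can show is whether the promoters of the pathway were open and whether their openness differed between groups.

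The promoters of 5 members carry, in the 250 bases before their first RefSeq start site, a match to a recognition motif that was searched for. They are shown for that match, which by itself does not tie a window to the pathway. The sequences are RefSeq's, on GRCh38.p14 rather than on the CHM13 assembly to which the reads were aligned, are written 5′ to 3′ on the strand of the gene, and have the motif in capitals.
ASNS, chr7:97872409-97872658, minus strand: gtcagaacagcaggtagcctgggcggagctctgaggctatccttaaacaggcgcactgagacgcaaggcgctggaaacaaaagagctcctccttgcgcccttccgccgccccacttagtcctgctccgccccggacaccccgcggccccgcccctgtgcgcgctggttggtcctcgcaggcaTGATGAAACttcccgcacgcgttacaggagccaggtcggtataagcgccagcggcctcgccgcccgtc
CHAC1, chr15:40953221-40953470, plus strand: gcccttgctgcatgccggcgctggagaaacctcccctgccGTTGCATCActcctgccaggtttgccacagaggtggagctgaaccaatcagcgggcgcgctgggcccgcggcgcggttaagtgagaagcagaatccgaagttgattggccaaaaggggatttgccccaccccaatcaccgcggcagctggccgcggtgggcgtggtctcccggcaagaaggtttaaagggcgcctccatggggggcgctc
HERPUD1, chr16:56931892-56932141, plus strand: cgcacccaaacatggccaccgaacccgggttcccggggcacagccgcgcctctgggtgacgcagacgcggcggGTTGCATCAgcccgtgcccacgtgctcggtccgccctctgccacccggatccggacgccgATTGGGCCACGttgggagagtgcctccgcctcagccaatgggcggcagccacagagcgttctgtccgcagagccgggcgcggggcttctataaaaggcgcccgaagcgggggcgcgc
XBP1, chr22:28800570-28800819, minus strand: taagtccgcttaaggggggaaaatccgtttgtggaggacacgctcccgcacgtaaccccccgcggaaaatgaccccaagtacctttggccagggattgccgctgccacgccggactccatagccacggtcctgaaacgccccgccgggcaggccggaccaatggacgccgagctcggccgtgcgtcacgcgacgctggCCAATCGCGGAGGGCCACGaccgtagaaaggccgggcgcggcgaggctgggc
PPP1R15A, chr19:48872171-48872420, plus strand: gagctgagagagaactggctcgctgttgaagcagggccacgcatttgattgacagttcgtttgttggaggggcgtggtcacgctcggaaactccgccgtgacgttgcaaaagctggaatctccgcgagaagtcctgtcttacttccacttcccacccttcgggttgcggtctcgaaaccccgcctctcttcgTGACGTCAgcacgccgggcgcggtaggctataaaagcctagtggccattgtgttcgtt

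In ASNS, CHAC1 and HERPUD1 the capitals mark the C/EBP-ATF response element, at which ATF4 binds with a C/EBP partner, searched as TGATGNAAT or TGATGNAAC on both strands. It lay 68 to 60 bases before the start site in ASNS, and on the opposite strand 210 to 202 bases before it in CHAC1 and 177 to 169 bases before it in HERPUD1. The later capitals in HERPUD1 mark the second form of the ER stress response element, ATTGG and CCACG with 1 base between them, 117 to 107 bases before the start. XBP1 holds the first form of that element, CCAAT and CCACG with 9 bases between them, 52 to 34 bases before the start. PPP1R15A holds the cyclic AMP response element TGACGTCA, which reads the same on both strands, 58 to 51 bases before the start. The unfolded protein response element, searched as TGACGTGG or TGACGTGA, was found in none of the 10.

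Among 26222 start-site windows of the same length, for the 19554 genes of the count table that had one, 1.24% held the C/EBP-ATF element, 0.0915% the first and 0.061% the second form of the ER stress element, 1.94% the cyclic AMP element and 1.06% the unfolded protein response element. At least 1 of these 5 motifs stood in 4.32% of all windows. It stood in 5 of the 10 members, where a member counted once over all of its start sites. The shares are thus in unlike units, windows for the background and genes for the members. The motifs were also chosen for their known link to such responses, so that the shares are not a test of the members. A match is a description of the letters and not of binding, and ATF4, ATF3, DDIT3, TRIB3 and SESN2 had no match in these windows. The median GC content of the 250 bases was 65.8% at the first start site of the members, against 61.2% in all windows. The median ratio of observed to expected CpG was 0.89 against 0.68 in the same sets. At these first start sites, GC content ranged from 49.2% in ATF3 to 78.8% in TRIB3. ATF3, PPP1R15A (57.2%) and ATF4 (58.4%) lay below the median of all windows. The CpG ratio was 0.28 in the first window of ATF3 and above the median of all windows in the others.

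Depth set the precision of what follows. Total promoter counts ranged from 3734519 to 10255182 per library. Nuclear promoters, to which all members belong, took 4928862 and 3675088 of them in control and 1826951 and 979895 after overexpression. The 10 members together took 3176 and 2419 in control and 1122 and 658 after overexpression. Mitochondrial promoters took 53.8% ± 2.60 (SD, n = 2) of the control counts, against 74.2% ± 0.640 (SD, n = 2) after overexpression, and the part of this difference in the values below was not tested. Relative to nuclear counts alone, the members held 65.1 ± 0.979 (SD, n = 2) per 100000 in control and 64.3 ± 4.06 (SD, n = 2) in overexpression, a difference smaller than the spread between the overexpression libraries. The promoter of MORC2 itself had a log2 fold change of −0.14 (adjusted p 0.695). The labels say nothing of a MORC2 promoter in the plasmid, so that this value does not check the overexpression.

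Levels are given as CPM, counts per 1000000 of a library total scaled by the trimmed mean of M-values (TMM). Each window was taken as 2 kb long, as the methods of the study define a promoter, so that levels can be compared between genes per equal length. In control, the most open members were SESN2 at 40.0 ± 1.81 CPM, ATF4 at 38.1 ± 2.06 and DDIT3 at 37.9 ± 1.37 (mean ± SD, n = 2), and the control values of neighbours in this order overlapped. They lay at percentiles 94.6, 93.6 and 93.4 of the control levels of nuclear promoters tested. XBP1 at 29.5 ± 4.29 and HERPUD1 at 28.3 ± 0.943 CPM followed, with overlapping values, at percentiles 86.1 and 84.5. CHAC1 (14.7 ± 1.07 CPM) and TRIB3 (13.9 ± 0.0851 CPM) also overlapped, near the middle of the distribution. Below them PPP1R15A had 12.3 ± 0.678, ASNS 10.5 ± 0.688 and ATF3 4.38 ± 1.15 CPM, each apart from its neighbour in both control libraries. The control level of ATF3 was 11.0% of that of SESN2.

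The level of ATF3 can be set beside that of genes of other lineages. The promoters of MYH6 (heart muscle) and INS (pancreatic beta cells) had 2.83 and 2.96 CPM in control, and ALB, PTPRC and CD3E had at most 10 counts in any library and were not tested. ATF3 had 1.55 times the level of MYH6 and 1.48 times that of INS. The log2 fold changes of MYH6 and INS were 0.59 and 0.33, neither past the threshold. Both overexpression libraries lay above both control libraries in each, as in 35.3% of promoters in the same of 4 abundance bins. In MYH6 the nearest values of the groups differed by 0.0032 on the log2 scale. Of the genes listed as markers of HEK293T cells, VIM and CDH2 were the most open, at 51.4 and 38.6 CPM, while PAX2 had 3.59 and EYA1 1.75. ATF3 has 2 start sites in RefSeq, 49611 bases apart, whereas the start sites of every other member lay within 492 bases, and the table holds 1 count per gene. Which ATF3 start site was counted is not stated in the sources used here.

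**Figure D1:**
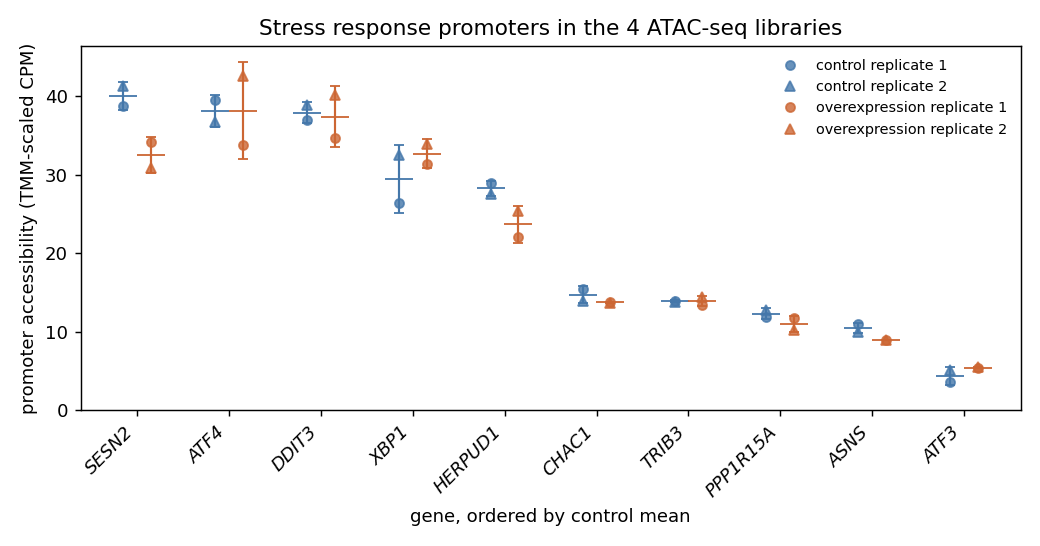
Accessibility of the 10 stress response promoters in TMM-scaled CPM, ordered by the control mean, with 1 point per library and a bar with SD for each group (n = 2). The top 3 promoters lie near 40 CPM in control and ATF3 lies at 4.38, and the groups overlap in 4 of the 10 genes.

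To ask whether overexpression of MORC2 altered these promoters, the groups were compared in an edgeR quasi-likelihood fit across all 23407 promoters. Of the 10 members, 0 passed an adjusted p of 0.05, and 2.47% of all promoters did, 1.16% rising and 1.3% falling. That share belongs to this fit, which called 577 promoters, where DESeq2 called 52. SESN2 and HERPUD1 had an unadjusted edgeR p under 0.05, which 17.2% of all promoters had, and DESeq2 gave 0 members by either measure. The smallest adjusted p among the members was 0.181. The median log2 fold change was −0.07 over the members and 0.0099 over all promoters tested, and it ran from −0.28 to 0.35 across members. With 2 libraries against 2, an exact two-sided permutation test of one promoter cannot go below p = 0.333, so that the fit across all promoters was the test used.

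ATF4, the central transcription factor of the integrated stress response, had 39.5 and 36.6 CPM in control and 33.7 and 42.5 after overexpression. The overexpression values lay on either side of both control values. The log2 fold change was −0.04 (SE 0.115, 95% interval from −0.27 to 0.18, adjusted p 0.883). DDIT3 encodes CHOP, the factor through which lasting stress promotes cell death, and had 36.9 and 38.8 CPM in control and 34.7 and 40.1 in overexpression. Here too the overexpression libraries enclosed the control libraries, and the log2 fold change was −0.04 (SE 0.115, interval from −0.27 to 0.18, adjusted p 0.890). The promoter of LOC128125814, which starts within 2000 bases of DDIT3, differed from it by at most 4 counts in any library and is the same measurement for practical purposes. Among the 19554 genes of the promoter table with a start site at hand, no other started that close to a member.

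ATF3, a factor induced by ATF4 that in turn limits or prolongs the response, was the one member above both control libraries in both overexpression libraries. Its counts were low, 50 and 54 without and 29 and 16 with overexpression, or 3.56 and 5.19 CPM against 5.41 and 5.48. The control libraries differed from each other by 0.54 on the log2 scale, more than the fitted change of 0.35 (SE 0.275, interval from −0.19 to 0.89, adjusted p 0.543). The size depended on which control library was in the fit, since the log2 fold change was 0.07 without control replicate 1 and 0.60 without control replicate 2. XBP1, the transcription factor made active by splicing, had 26.4 and 32.5 CPM in control and 31.3 and 33.9 in overexpression, so that the groups overlapped. Its log2 fold change was 0.15 (SE 0.121, interval from −0.09 to 0.38, adjusted p 0.559), and it was −0.0079 without control replicate 1.

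Among the targets of ATF4, ASNS makes asparagine, CHAC1 degrades glutathione and SESN2 restrains the growth kinase mTORC1 when leucine is short. SESN2 had 38.7 and 41.2 CPM in control and 34.1 and 30.8 in overexpression, with both overexpression libraries below both control libraries. Its log2 fold change was −0.28 (SE 0.118, interval from −0.51 to −0.05, unadjusted p 0.0176, adjusted p 0.181). The 4 ratios of an overexpression to a control library lay between −0.42 and −0.18, against 0.09 between the control and −0.15 between the overexpression libraries. ASNS went from 11.0 and 10.0 CPM to 8.95 and 8.91, again without overlap, and its log2 fold change was −0.24 (SE 0.203, interval from −0.64 to 0.16, adjusted p 0.568). At 26 to 154 counts per library, a change of that size in ASNS was not detectable. CHAC1 had 15.5 and 13.9 CPM in control and 13.8 and 13.7 in overexpression. Its groups were separated by less than the control libraries were from each other, and its log2 fold change was −0.10 (SE 0.166, interval from −0.43 to 0.22, adjusted p 0.793).

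A further pair of members feeds back on the response. PPP1R15A, also known as GADD34, brings a phosphatase to eIF2 and so restores protein synthesis, and TRIB3 is a pseudokinase that binds ATF4 and dampens its activity. PPP1R15A had 11.8 and 12.8 CPM in control and 11.7 and 10.3 in overexpression, and the nearest values of the groups differed by 0.01 on the log2 scale. Its log2 fold change was −0.13 (SE 0.183, interval from −0.49 to 0.23, adjusted p 0.767). TRIB3 showed the smallest change of the 10, with 14.0 and 13.8 CPM in control and 13.4 and 14.4 in overexpression. Its log2 fold change was −0.01 (SE 0.167, interval from −0.34 to 0.31, adjusted p 0.975), an interval that still holds changes of about 0.3 in either direction.

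HERPUD1, an ER membrane protein that helps clear misfolded proteins, is the member with motifs of both arms of the response in the sequence printed above. It had 28.9 and 27.6 CPM in control and 22.0 and 25.4 in overexpression, with no overlap of the groups. The log2 fold change was −0.28 (SE 0.133, interval from −0.55 to −0.02, unadjusted p 0.0303, adjusted p 0.230). Under TMM, HERPUD1 and SESN2 were the 2 members whose interval did not include 0, and neither passed the threshold over all promoters.

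**Figure D2:**
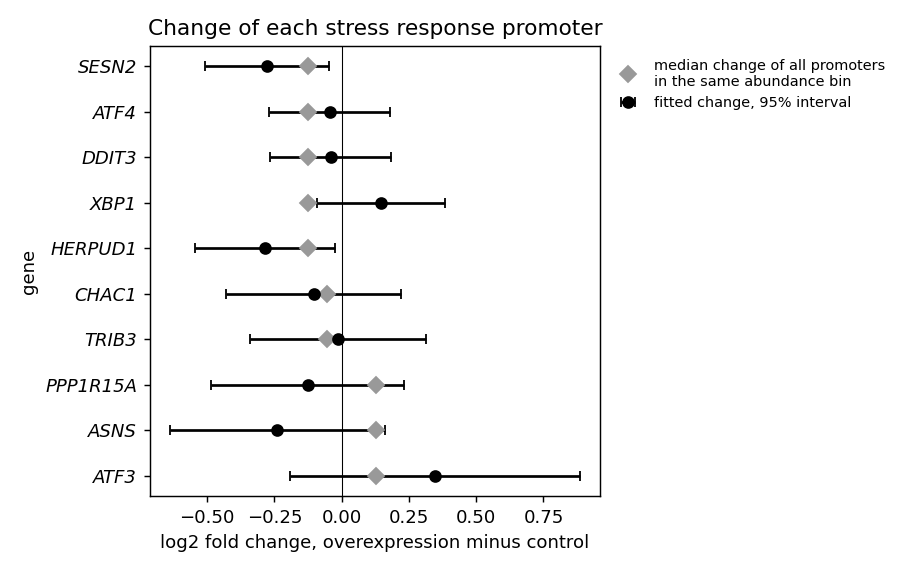
Log2 fold change (overexpression minus control) of each stress response promoter with its 95% interval from the edgeR fit under TMM (n = 2 per group), beside the median change of all promoters in the same of 4 abundance bins. The intervals of SESN2 and HERPUD1 lie below 0 and the other 8 include 0, and that of XBP1 lies wholly above its bin median of −0.13.

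In 5 members both overexpression values were under both control values, in 1 they were over them, and the groups overlapped in 4. Over all promoters tested, 24.9% lay below and 24.8% above. These shares depended on the level of a promoter. When the tested promoters were ranked by mean abundance and split into 4 bins of like size, 7.33%, 11.9%, 29.9% and 50.4% lay below both control libraries going up in abundance. The median log2 fold change fell over the same bins, from 0.39 and 0.13 to −0.05 and −0.13. SESN2, ATF4, DDIT3, XBP1 and HERPUD1 were in the highest bin, CHAC1 and TRIB3 in the next and PPP1R15A, ASNS and ATF3 in the one below. In the highest bin 2 of the 5 members lay below both control libraries, a share close to that of the bin. In the bin of PPP1R15A and ASNS, both lay below, where 11.9% of promoters did, and ATF3 lay above, where 35.3% did.

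**Figure D3:**
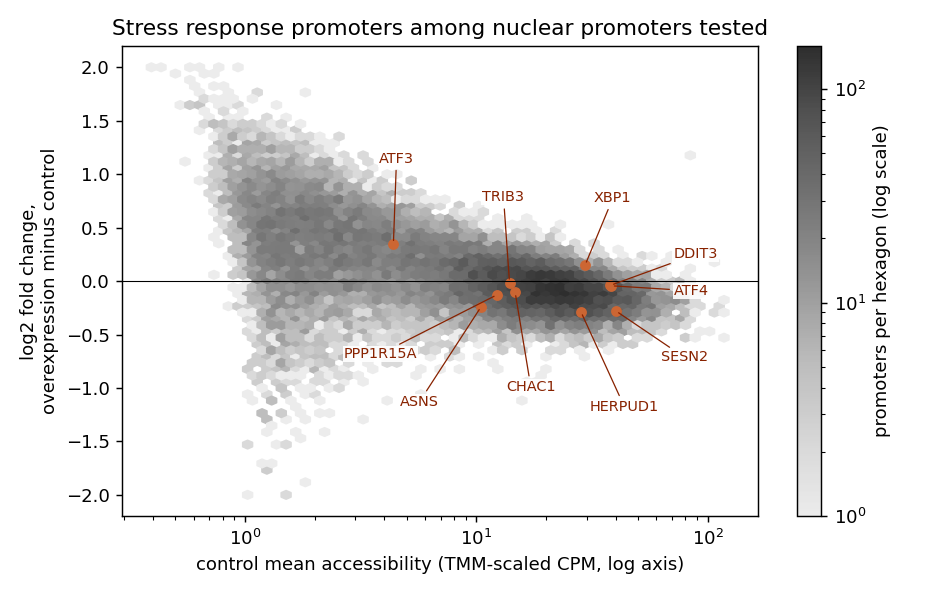
Log2 fold change against the control mean level (log axis) for nuclear promoters tested, drawn as shaded hexagons, with the 10 stress response promoters as points, and changes beyond 2 on the log2 scale drawn at 2. The cloud falls from left to right, from a median of 0.39 in the lowest abundance bin to −0.13 in the highest, and the members lie within it.

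The sign of small changes depended on how the libraries were scaled. Under TMM 8 of the 10 members had a log2 fold change below 0, while 5 of 10 did under upper-quartile scaling, under totals of nuclear promoters and under loess scaling, which removes a trend with abundance. Upper-quartile scaling and nuclear totals moved all promoters alike, so that the log2 fold change had a median over the whole table of 0.0099 under TMM, 0.09 under upper-quartile scaling and 0.07 under nuclear totals, and over the members of −0.07, 0.0070 and −0.01. The members' median thus stayed below that of all promoters, but these scalings leave the trend with abundance in place. The members' median control percentile was 70.6, but PPP1R15A, ASNS and ATF3 were in a bin whose median change was 0.13. The part of the trend in the members' median was not tested. The changes of sign in ATF4, DDIT3 and TRIB3 under upper-quartile scaling and nuclear totals followed from the shift. Under loess scaling the median was −0.03 over the members and −0.0068 over all promoters, and ATF4 had 0.10, DDIT3 0.10 and TRIB3 0.0093. XBP1 had 0.27 there and was the 1 member with an unadjusted edgeR p under 0.05 (p 0.0271, adjusted p 0.404). With upper-quartile scaling or nuclear totals, 0 members had an unadjusted edgeR p under 0.05. SESN2, HERPUD1, CHAC1, PPP1R15A and ASNS stayed below 0 in all 14 alternative fits, with SESN2 between −0.38 and −0.14 and HERPUD1 between −0.37 and −0.17. ATF3 stayed above 0 in all 14. In none of the 14 did a member pass an adjusted p of 0.05.

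**Figure D4:**
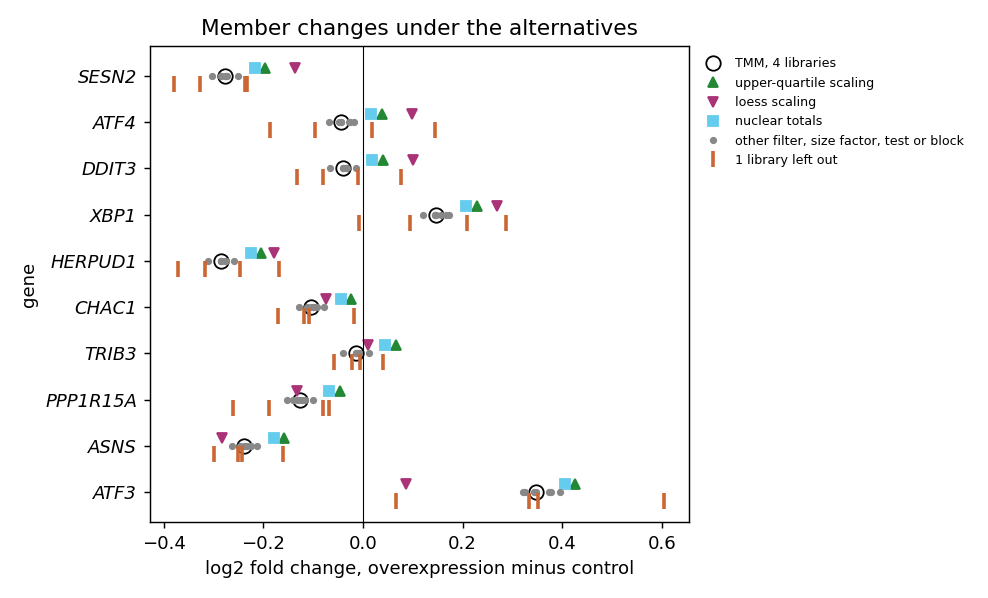
Log2 fold change of each stress response promoter (overexpression minus control) under TMM scaling with 4 libraries and under 14 alternative fits of scaling, filter, test, replicate block or 1 library left out. SESN2 and HERPUD1 stay below 0 throughout, ATF4, DDIT3 and TRIB3 cross 0, and ATF3 ranges from 0.07 to 0.60.

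Other genes of the same pathways were counted in 3 lists of known function, with 85 genes in all, each of which was tested. Of the 85, 1 rose and 1 fell, a share close to the 2.47% of all promoters that were called in the same fit. A log2 fold change below 0 was found in 59 of the 85 and in 48.6% of all promoters tested, with the dependence on abundance given above. The first list held 19 genes for the eIF2 kinases, the ER sensors and the control of eIF2. None of the 19 passed the edgeR threshold, 1 had an unadjusted p under 0.05 and DESeq2 called 0. Their median log2 fold change was −0.08, with 12 below 0, and the median was 0.0019 under upper-quartile and 0.03 under loess scaling. EIF2AK3, which encodes the ER stress kinase PERK, was the most open of them at 53.0 CPM in control and 50.8 in overexpression (log2 fold change −0.05, SE 0.104, adjusted p 0.847). MBTPS2, a protease that releases the ER sensor ATF6, was the least open, at 7.26 CPM in control. EIF2B5, a subunit of the exchange factor that recharges eIF2, had the largest positive change, with 14.6 and 12.8 CPM in control and 18.3 and 16.8 in overexpression (log2 fold change 0.36, SE 0.154, adjusted p 0.193). EIF2AK1, the kinase that senses haem shortage and relays mitochondrial stress, had the lowest value of the list, −0.24 (SE 0.185, adjusted p 0.515).

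The second list held 36 further targets of ATF4 and CHOP, among them amino acid transporters, serine and one-carbon enzymes and tRNA synthetases. None of the 36 passed the edgeR threshold, 1 had an unadjusted p under 0.05 and DESeq2 called 0. Their median log2 fold change was −0.03 with 23 below 0, and it was above 0 under upper-quartile, nuclear-total and loess scaling. SLC38A2, an amino acid transporter induced by amino acid shortage, had 27.6 and 28.5 CPM in control and 23.3 and 19.5 in overexpression. Its log2 fold change was −0.35 (SE 0.136, adjusted p 0.125). DDIT4, an inhibitor of mTORC1, was the most open at 73.4 CPM in control and 71.9 in overexpression. The secreted stress hormones GDF15 and FGF21 had little accessibility, at 3.32 and 2.41 CPM in control, within 1 CPM of the promoters of MYH6 and INS. GDF15 had the highest value of the list, 0.34 (SE 0.317, adjusted p 0.622), with groups that overlapped.

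The third list held 30 genes of ER protein folding and ER-associated degradation, the main output of XBP1 and ATF6. One rose and 1 fell, and 7 of the 30 had an unadjusted p under 0.05, against 17.2% of all promoters and 1453 of the 5852 in the highest abundance bin. A log2 fold change below 0 was found in 24, with a median of −0.15. Their median control level lay at percentile 91.4, and in the highest abundance bin 79.2% of all promoters had a log2 fold change below 0. Under loess scaling 16 of the 30 were below 0 and the median was −0.0053. DNAJC3, an ER co-chaperone that also restrains the eIF2 kinases, fell from 59.7 and 58.7 CPM to 50.7 and 39.7 (log2 fold change −0.35, SE 0.106, adjusted p 0.0424). PDIA6, a protein disulfide isomerase of the ER, rose from 3.49 and 2.40 to 5.96 and 6.17 CPM (log2 fold change 1.00, SE 0.284, adjusted p 0.0360), on 18 to 49 counts per library. At 2.95 CPM in control, percentile 25.1, the window counted for PDIA6 was the least open of the list, close to MYH6 and INS. Which PDIA6 start site was counted is not stated in the sources used here, so this level may not describe its main promoter. DNAJC3 passed the threshold in 5 of the 14 alternative fits and PDIA6 in 8. Neither call held under loess scaling, in DESeq2 or without any one of the 4 libraries, and over these fits the adjusted p of PDIA6 ran from 0.0755 to 0.634 and that of DNAJC3 from 0.0591 to 0.589. DNAJC3 was also not called under upper-quartile scaling (adjusted p 0.129), nuclear totals (0.102) or a minimum of 10 counts in every library (0.0699). In DESeq2 the log2 fold changes were 1.02 for PDIA6 and −0.36 for DNAJC3, close to those of edgeR.

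The remaining genes of the third list that were named by the same rule did not pass the threshold. PDIA4, another disulfide isomerase, was the most open at 78.0 CPM in control and 66.4 in overexpression (log2 fold change −0.21, SE 0.0967, adjusted p 0.238). ERO1B, which reoxidises those isomerases, had 42.7 and 38.0 CPM in control and 32.1 and 31.9 in overexpression (log2 fold change −0.34, SE 0.119, adjusted p 0.0851). HYOU1, an ER chaperone, had a log2 value of −0.35 (SE 0.123, adjusted p 0.0864), with 1 overexpression library within the control values at 35.6 CPM. OS9, a lectin of ER-associated degradation, had the lowest value of the list, −0.38 (SE 0.154, adjusted p 0.144). HSPA5, which encodes the ER chaperone BiP, lay outside that rule and was chosen after its values were seen. Its promoter had 36.7 and 36.6 CPM in control and 39.7 in each overexpression library, a difference of 0.12 on the log2 scale (SE 0.113, adjusted p 0.633).

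**Figure D5:**
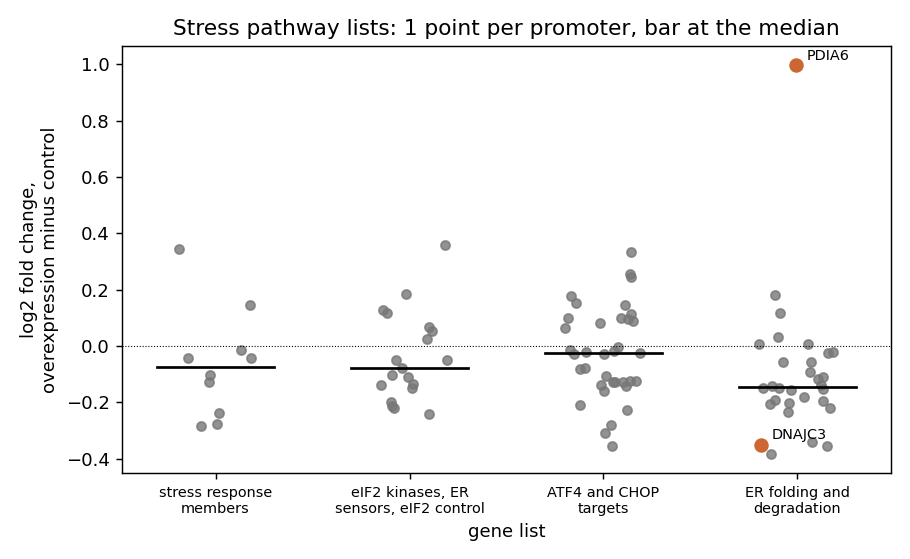
Log2 fold change (overexpression minus control) of the 10 stress response promoters and of 3 further pathway lists, with 1 point per promoter, a bar at each median and coloured points for an edgeR adjusted p under 0.05. The medians lie between −0.15 and −0.03, and PDIA6 and DNAJC3 are the only promoters drawn that pass the threshold under TMM.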

How the data were processed

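ATAC-seq was run on 2 control and 2 MORC2 overexpression libraries of HEK293T cells. Per the methods and the submitters' notes, the authors used bowtie2 for alignment of trimmed reads to CHM13, kept confidently placed proper pairs and removed duplicates with Picard, and deposited whole-number counts per promoter, 1 row per Entrez identifier, without normalisation. How fragments were assigned to promoters, and whether cuts were shifted for Tn5, is not given for this table in the sources used here. Peak lists were not used here, since promoter positions on CHM13 were not at hand.

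Symbols came from a RefSeq table of GRCh38.p14, which named 28763 of 28775 rows, and all 10 members matched. Promoter sequences came from RefSeq on the same build. Promoters passed filterByExpr of edgeR 4.0.16 (R 4.3.3), libraries were scaled by TMM, and groups were compared by the quasi-likelihood F-test (legacy form, two-sided, Benjamini-Hochberg over 23407 promoters, threshold 0.05). The common biological coefficient of variation was 4.28%, and the prior degrees of freedom were infinite, so that promoters of like abundance shared 1 dispersion. Alternatives used DESeq2 1.42.0, limma 3.58.1 (voom), other scalings and filters, a replicate block and 1 library left out. The code was tested on simulated data. Motifs were searched with Python 3.11.15.

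Named genes were the members, neighbours within 2000 bases and, in each pathway list, genes past the threshold, up to 5 with the smallest unadjusted p under 0.05, and the extremes of change and level. Members and lists were chosen with earlier results of these data known. Some marker genes of the lists are not reported here.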

Additional observations from a re-analysis of the deposited data

How the results depend on the processing

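The number of members past the threshold was 0 in every alternative fit, and 0 at an adjusted p of 0.1. The number of pathway list genes past it (2 of 85) was 1 with upper-quartile scaling, nuclear totals or at least 10 counts in every library, 0 with loess scaling or DESeq2, between 0 and 1 with each library left out, and 4 at an adjusted p of 0.1. The median change of the members (−0.07) was 0.0070 with upper-quartile scaling, which moved the median of all promoters from 0.0099 to 0.09, a shift common to all. Over all 23407 promoters tested, 577 passed the threshold in the main fit, 54 with loess scaling and 52 in DESeq2. In all, 300 of 349 single-promoter values changed neither sign nor side of the threshold. DNAJC3 was the gene lost with upper-quartile scaling, nuclear totals and the 10-count minimum. The cause of the other changes was not tested.

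Directions of promoters that passed no threshold reversed as follows. With upper-quartile scaling ATF4 had a log2 fold change of 0.037, DDIT3 of 0.041, TRIB3 of 0.066, LOC128125814 of 0.034, EIF2AK3 of 0.031 and DDIT4 of 0.064. With nuclear totals these genes, in that order, had 0.016, 0.019, 0.045, 0.012, 0.0097 and 0.042. With loess scaling they had 0.10, 0.10, 0.0093, 0.094, 0.12 and 0.17, with MBTPS2 at −0.0050, GDF15 at −0.00031 and FGF21 at −0.32. With at least 10 counts in every library TRIB3 had 0.012 and DDIT4 had 0.0075. Without 1 library, ATF4 ranged from −0.19 to 0.14, DDIT3 from −0.13 to 0.076, TRIB3 from −0.059 to 0.040, XBP1 from −0.0079 to 0.29, LOC128125814 from −0.14 to 0.072, DDIT4 from −0.14 to 0.095, FGF21 from −0.22 to 0.24 and MBTPS2 from −0.0022 to 0.29. HYOU1 passed the threshold without overexpression replicate 2 (log2 fold change −0.60, adjusted p 0.0355).

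Libraries with the same replicate number deviated from their group means with r = 0.05 over 14976 promoters, and they were treated as unpaired. The replicate block gave 488 changed promoters, 0 members and 2 pathway list genes past the threshold, and a median member change of −0.08. Depth limits single members, whose standard errors ran from 0.115 to 0.275 on the log2 scale.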
